A study of Mus musculus with 16 samples.

Results

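Adrenergic signalling was followed through 8 genes in mouse heart: the receptors Adra1a, Adra1b and Adrb1, the G protein gene Gnas, the adenylyl cyclases Adcy5 and Adcy6, the receptor kinase Grk5 and the arrestin Arrb1. They were taken by name from the deposited tables, which list 24371 genes, and all 8 were present. The Entrez identifiers given with them are 11549 (Adra1a), 11548 (Adra1b), 11554 (Adrb1), 14683 (Gnas), 224129 (Adcy5), 11512 (Adcy6), 14773 (Grk5) and 109689 (Arrb1).

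Noradrenaline and adrenaline act on heart muscle through receptors that span the cell membrane. The beta1 receptor, encoded by Adrb1, couples to the stimulatory G protein alpha subunit encoded by Gnas, which activates adenylyl cyclase. In heart muscle the main cyclases are those of Adcy5 and Adcy6, and the cyclic AMP they make activates protein kinase A, which raises the rate and force of contraction. The alpha1 receptors, among them those encoded by Adra1a and Adra1b, couple instead to Gq proteins and phospholipase C, a route linked to growth and survival of heart muscle cells. G protein-coupled receptor kinases such as Grk5 phosphorylate active receptors, and beta-arrestins such as Arrb1 then bind them and end their coupling to G proteins.

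The 16 hearts came from mice fed a high-fat diet and given L-NAME, which blocks the making of nitric oxide, for 12 weeks. The pair of stresses models HFpEF, the form of heart failure in which the ejection fraction is preserved. All 4 groups carried this treatment and floxed Gpr91 alleles, and each held 4 hearts. The groups were Gpr91fl/fl without succinate (floxed hearts), Gpr91fl/fl with succinate, Myh6Cre Gpr91fl/fl without succinate (Cre hearts), and Myh6Cre Gpr91fl/fl with succinate. Myh6 is expressed in cardiomyocytes. The Cre recombinase is therefore meant to remove the succinate receptor gene there and leave it in the other cells of the heart. None of the 4 groups carried Myh6Cre without the floxed alleles, so carrying Cre and losing the receptor cannot be told apart. Strain, age, and the dose and length of succinate treatment are not given in the sources used here.

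Total counts were 27835235 to 34700996 per library, and mitochondrially encoded genes took 23.5% to 27.7% of them. The floxed gene, listed as Sucnr1, had 0 to 21 counts per library and was not lower in Cre hearts, at 0, 4, 1 and 1 counts in floxed hearts, 5, 2, 7 and 0 with succinate, 2, 6, 21 and 3 in Cre hearts and 13, 3, 13 and 2 with succinate, so the genotype below is that of the labels. Cardiomyocyte markers (7 genes, including Myh6 and Tnnt2) summed to 39724 to 56268 CPM (counts scaled to the library total). All hearts had Y-linked transcripts (Ddx3y at 1034 to 1678 counts). On the first principal component of all tested genes, replicate 2 of the floxed hearts (-5.82, against -27.5 to -20.2) and replicate 1 of the Cre hearts (-42.6, against -11.2 to -7.39) lay farthest from their groups. Leaving out both changed the number of the 8 genes that passed in none of the 7 comparisons made.

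Promoter sequence is shown for 3 genes on which the results turn: Adra1b, which rose with succinate, Adrb1, a receptor gene that did not pass, and Grk5, which was higher in Cre hearts. RefSeq's table (GRCm38.p6, a different build from the GRCm39 used for the counts) matched 5 of the 8 genes, with 9 starts. Each line gives the 250 bases before a transcription start, 5′ to 3′ on the gene's strand, with motif matches in capitals.
Adra1b, chr11:43901238-43901487, minus strand: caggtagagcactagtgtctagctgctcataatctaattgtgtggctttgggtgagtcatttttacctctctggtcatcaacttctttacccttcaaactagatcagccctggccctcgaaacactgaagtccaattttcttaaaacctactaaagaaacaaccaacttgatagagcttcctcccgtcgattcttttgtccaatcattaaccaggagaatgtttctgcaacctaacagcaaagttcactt
Adra1b, chr11:43836490-43836739, minus strand: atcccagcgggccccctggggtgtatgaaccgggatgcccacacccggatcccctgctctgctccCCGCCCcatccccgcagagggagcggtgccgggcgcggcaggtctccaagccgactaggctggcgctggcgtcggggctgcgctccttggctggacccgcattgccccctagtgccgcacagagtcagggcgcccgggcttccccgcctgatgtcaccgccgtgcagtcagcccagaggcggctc
Adrb1, chr19:56721867-56722116, plus strand: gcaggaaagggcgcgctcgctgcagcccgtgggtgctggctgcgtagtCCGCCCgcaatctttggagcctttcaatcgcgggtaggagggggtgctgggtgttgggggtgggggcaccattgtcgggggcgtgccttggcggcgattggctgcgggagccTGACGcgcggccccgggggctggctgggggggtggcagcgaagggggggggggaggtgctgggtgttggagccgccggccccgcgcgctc
Grk5, chr19:60889499-60889748, plus strand: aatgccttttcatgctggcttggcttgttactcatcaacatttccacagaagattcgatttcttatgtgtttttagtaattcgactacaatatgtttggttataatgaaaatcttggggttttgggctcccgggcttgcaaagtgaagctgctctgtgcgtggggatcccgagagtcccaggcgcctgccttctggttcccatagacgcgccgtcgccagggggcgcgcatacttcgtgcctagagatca

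The motifs searched on both strands were TGACGTCA (the cyclic AMP response element), its core TGACG, which the full element contains, AGGTCA (bound by nuclear receptors), GGGCGG (the GC box) and CACGTG (the E-box). The distal Adra1b window was 41.6% G and C and held none of them, whereas the proximal one was 72.8% G and C and held 1 GC box. The Adrb1 window was 74.0% G and C and held 1 GC box and 1 TGACG. The Grk5 window was 49.6% G and C and held none. Among 32851 RefSeq promoters, 1.55% had the full element in the same 250 bases, 17.8% the core, 14% AGGTCA, 32.7% the GC box and 6.02% the E-box. These matches describe letters and are not measurements of binding.

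Adra1a and Adra1b, which encode alpha1 receptors, rose with succinate. Adra1a about doubled in floxed hearts, Adra1b rose in both genotypes, and the beta1 receptor gene did not pass in either. Levels are given as the deposited FPKM, the count divided by gene length and library total. In this form they can be set side by side between genes, but the order then rests on the gene lengths used. In floxed replicate 1 Adra1a had 1025 counts and Adra1b 518, at 2.26 and 4.68 FPKM. Fold changes and adjusted p-values come from edgeR's quasi-likelihood test on the counts, with Benjamini-Hochberg adjustment over 14607 tested genes and 0.05 as the threshold, and errors of log2 fold changes are standard errors.

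Adra1a encodes the alpha1A receptor. In replicates 1 to 4 its level was 2.26, 2.34, 1.90 and 1.63 FPKM in floxed hearts and 4.87, 3.79, 4.73 and 3.15 FPKM in floxed hearts given succinate. The 4 treated hearts all lay above the 4 untreated ones, and the means were 2.03 ± 0.331 and 4.14 ± 0.812 FPKM (SD, n = 4 each). The log2 fold change was 1.08 ± 0.18 (adjusted p = 0.00124). In Cre hearts the level was 1.26, 1.504, 1.75 and 1.59 FPKM without succinate and 2.78, 1.46, 2.30 and 2.34 FPKM with it. Here 3 of 4 treated hearts lay above every untreated heart and replicate 2 did not. The log2 fold change of 0.57 ± 0.18 did not pass (adjusted p = 0.138).

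Adra1b encodes the alpha1B receptor. Its level was 4.68, 7.55, 3.85 and 4.36 FPKM in floxed hearts and 11.9, 10.4, 8.80 and 9.40 FPKM in those given succinate. In Cre hearts it was 5.11, 4.07, 5.71 and 3.88 FPKM without succinate and 9.32, 6.49, 8.62 and 7.85 FPKM with it. Within each genotype every treated heart lay above every untreated one. The rise was 1.04 ± 0.18 on the log2 scale in floxed hearts (adjusted p = 0.00141) and 0.82 ± 0.18 in Cre hearts (adjusted p = 0.0343). The call in Cre hearts was close to the threshold. It was lost without replicate 1, 2 or 4 of the untreated Cre hearts (adjusted p = 0.129, 0.0742 and 0.0757), without replicate 1, 3 or 4 of the treated ones (0.116, 0.0774 and 0.107), and without replicate 2 of the floxed hearts given succinate, which shares the estimate of spread (0.0560). Over these 7 fits the log2 fold change stayed between 0.73 and 0.82. Without a filter on low counts (adjusted p = 0.0554) and in limma on log2 FPKM (0.0508 to 0.0660) it did not pass either, whereas DESeq2 passed it (0.00167).

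Adrb1 encodes the beta1 receptor, the main beta receptor of heart muscle. Its level was 2.83, 3.15, 1.97 and 1.80 FPKM in floxed hearts, 2.67, 2.51, 3.08 and 2.12 FPKM in floxed hearts given succinate, 2.24, 3.02, 3.58 and 1.89 FPKM in Cre hearts, and 3.29, 1.68, 2.02 and 2.17 FPKM in Cre hearts given succinate. All 4 groups overlapped. The log2 fold change with succinate was 0.14 ± 0.23 in floxed hearts and -0.20 ± 0.23 in Cre hearts (adjusted p = 0.738 and 0.759). With 160 to 343 counts per library Adrb1 was the most thinly counted of the 8 genes, and its standard errors were the widest.

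**Figure D1:**
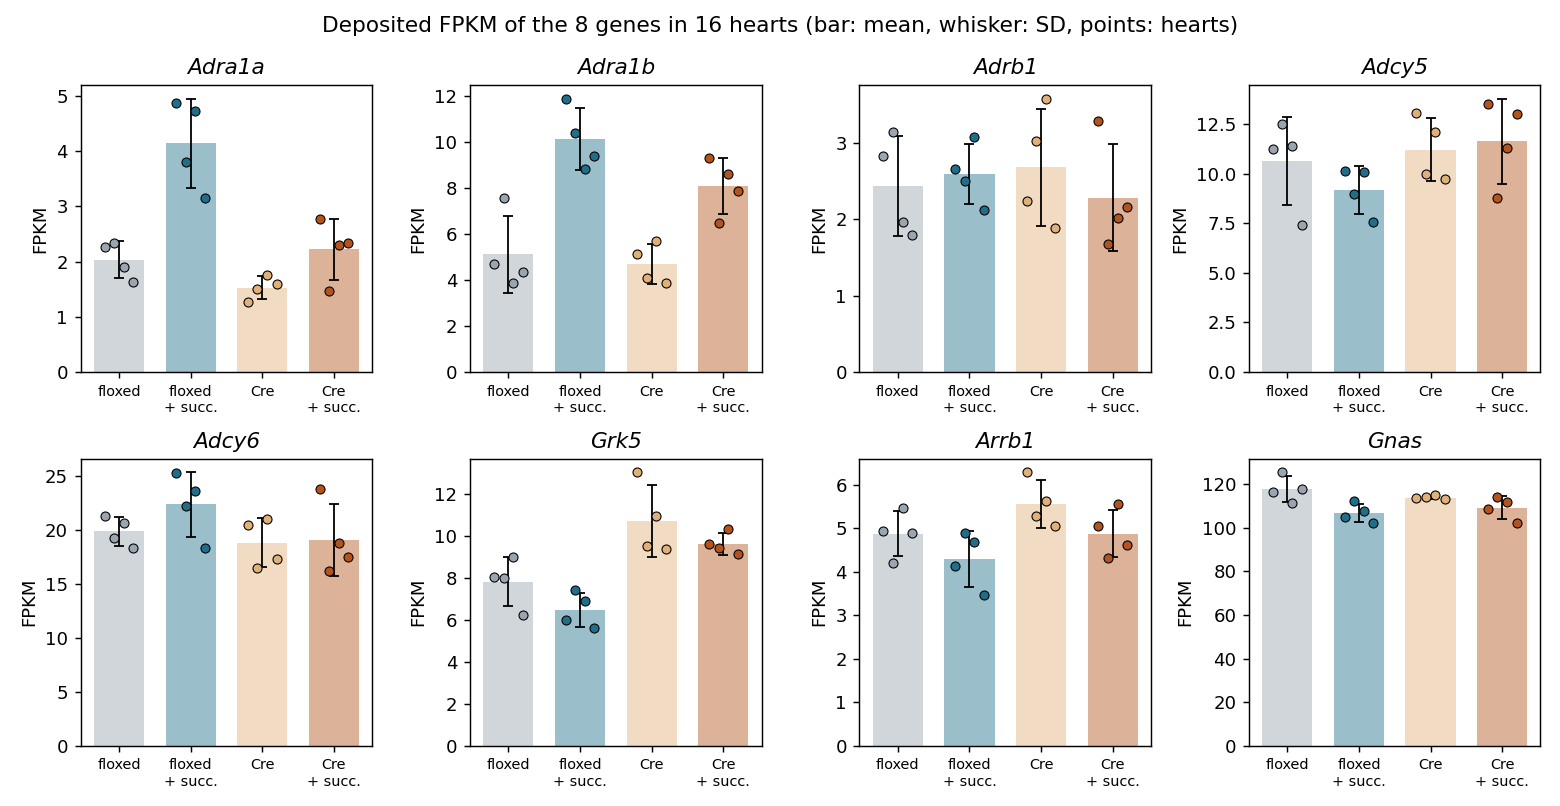
Deposited FPKM (y axis, from 0, a separate scale per gene) of the 8 genes in the 4 groups (x axis), with points for hearts, bars for means and whiskers for SD, n = 4. Adra1b lies at 8.80 to 11.9 FPKM in floxed hearts given succinate against 3.85 to 7.55 FPKM without, while all 4 groups of Adrb1 overlap.

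Over both genotypes the mean succinate effect was 0.82 ± 0.13 for Adra1a and 0.93 ± 0.12 for Adra1b (log2; adjusted p = 0.000371 and 0.000114), against -0.03 ± 0.16 for Adrb1 (adjusted p = 0.920). The 2 alpha1 genes were the only ones of the 8 that passed for succinate in floxed hearts, where 13.1% of all tested genes passed (7.48% higher, 5.64% lower). In Cre hearts 1 of 8 passed, where 0.917% of all genes did (0.602% higher, 0.315% lower), and over both genotypes 2 of 8, where 19% did (10.6% higher, 8.45% lower). The median log2 fold change of the 8 genes was 0.02 in each genotype, and that of all tested genes was 0.00 in floxed and 0.01 in Cre hearts.

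Per heart, the summed FPKM of Adra1a and Adra1b was 2.45 to 3.33 times that of Adrb1 in floxed hearts (median 3.03) and 4.40 to 6.28 times in floxed hearts given succinate (median 5.79). In Cre hearts the ratio was 1.84 to 2.90 (median 2.47), and 3.68 to 5.40 with succinate (median 4.72). This ratio of transcripts does not depend on the scaling of a library, although its size depends on the gene lengths used. Its treated and untreated hearts did not overlap in either genotype. The ratio was chosen after the values were seen and has no test.

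**Figure D2:**
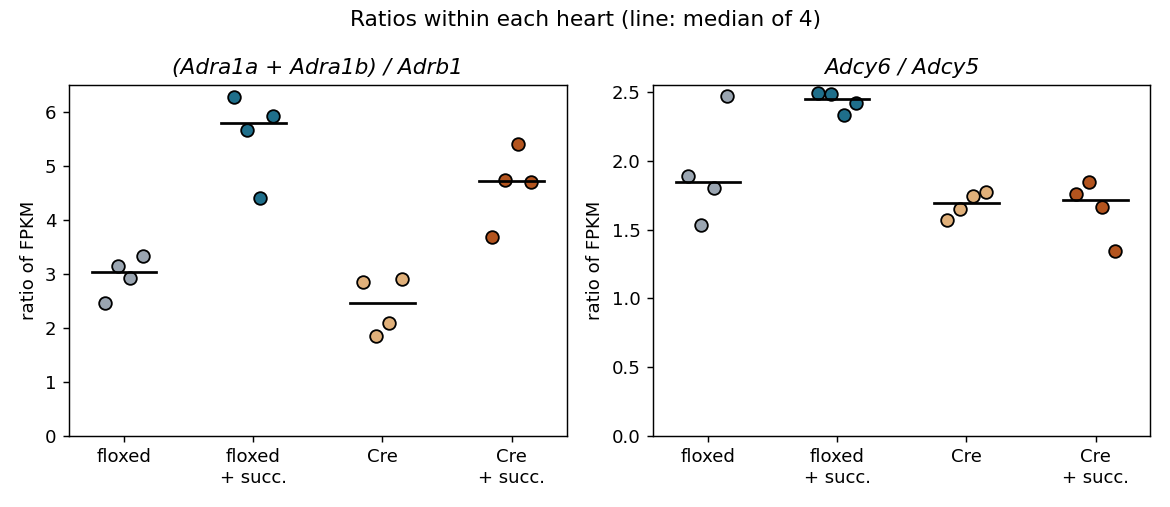
Ratios of FPKM within each heart (y axis, from 0) in the 4 groups (x axis), with points for hearts and a line at the median. On the left, alpha1 over beta1 receptor transcripts lies at 4.40 to 6.28 in floxed hearts given succinate and 2.45 to 3.33 without. On the right, Adcy6 over Adcy5 lies at 2.34 to 2.50 in floxed hearts given succinate and 1.35 to 1.84 in Cre hearts given succinate.

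The genotype comparison also touched an alpha1 receptor. Adra1a was lower in Cre hearts than in floxed hearts when both were given succinate, at 2.22 ± 0.551 against 4.14 ± 0.812 FPKM (SD, n = 4 each), and the 2 groups did not overlap. The log2 fold change was -0.94 ± 0.18 (adjusted p = 0.0174). Without succinate it was -0.43 ± 0.18 (adjusted p = 0.505), with 3 of 4 Cre hearts below every floxed heart. The mean of both genotype effects was -0.68 ± 0.13 (adjusted p = 0.00857). Adra1b was at -0.37 ± 0.17 with succinate and -0.15 ± 0.18 without, neither past the threshold (adjusted p = 0.447 and 0.855).

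The call for Adra1a with succinate was lost without replicate 1 or 3 of the treated floxed hearts (adjusted p = 0.0728 and 0.0635) or replicate 3 of the treated Cre hearts (0.0625), with log2 fold changes of -0.84, -0.88 and -0.93. The mean over both treatments passed without any single library (adjusted p of 0.00459 to 0.0208). Ordered by mean FPKM, floxed hearts given succinate (4.14) stood above the other 3 groups without overlap, and neighbouring groups among Cre hearts given succinate (2.22), floxed hearts (2.03) and Cre hearts (1.53) overlapped. For Adra1b the order was floxed with succinate (10.1), Cre with succinate (8.07), floxed (5.11) and Cre (4.69), and each neighbouring pair overlapped.

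Downstream of the beta1 receptor Gnas, Adcy5 and Adcy6 passed in none of the 7 comparisons in edgeR or DESeq2. Gnas encodes the stimulatory G protein alpha subunit and was the most abundant of the 8 genes per length. Its level was 116, 125, 111 and 118 FPKM in floxed hearts, 105, 112, 108 and 102 FPKM with succinate, 113, 114, 115 and 113 FPKM in Cre hearts, and 108, 114, 112 and 102 FPKM in Cre hearts given succinate. The groups overlapped in all 4 comparisons, and the largest of the 4 log2 fold changes in size was -0.09 ± 0.08, for succinate in floxed hearts (adjusted p = 0.468). The Gnas locus makes several transcripts from different starts, which counts per gene do not separate, and in GENCODE M21 the antisense gene Nespas overlaps it on the opposite strand.

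Adcy6 encodes the cyclase that stood higher per length of the pair. Its level was 21.3, 19.2, 20.6 and 18.3 FPKM in floxed hearts, 25.3, 22.3, 23.6 and 18.3 FPKM with succinate, 20.4, 16.5, 21.0 and 17.3 FPKM in Cre hearts, and 23.7, 16.1, 18.8 and 17.5 FPKM in Cre hearts given succinate. In floxed hearts 3 of 4 treated hearts lay above every untreated one and replicate 4 lay below all of them. The succinate effect was 0.22 ± 0.12 in floxed and 0.06 ± 0.12 in Cre hearts (log2; adjusted p = 0.234 and 0.876). The genotype effect was -0.10 ± 0.12 without and -0.27 ± 0.12 with succinate (adjusted p = 0.845 and 0.415).

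Adcy5 encodes the other main cardiac cyclase. Its level was 11.2, 12.5, 11.4 and 7.40 FPKM in floxed hearts, 10.1, 8.95, 10.1 and 7.56 FPKM with succinate, 13.0, 9.99, 12.1 and 9.75 FPKM in Cre hearts, and 13.5, 8.76, 11.3 and 13.0 FPKM in Cre hearts given succinate. Each pair of groups compared overlapped. The succinate effect was -0.16 ± 0.15 in floxed and 0.10 ± 0.15 in Cre hearts (adjusted p = 0.517 and 0.832), and the genotype effect was 0.05 ± 0.15 without and 0.31 ± 0.15 with succinate (adjusted p = 0.952 and 0.468). Within each heart Adcy6 stood at 1.54 to 2.47 times Adcy5 in floxed hearts, 2.34 to 2.50 times with succinate, 1.57 to 1.77 times in Cre hearts and 1.35 to 1.84 times in Cre hearts given succinate. The 4 floxed hearts given succinate lay above all 4 Cre hearts given succinate in this ratio, a description chosen after the values were seen, since neither gene passed on its own.

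Among the genes that switch receptors off, Grk5 differed by genotype. Grk5 encodes a receptor kinase anchored at the membrane that can also act in the nucleus. Its level was 8.05, 7.98, 8.996 and 6.22 FPKM in floxed hearts and 13.0, 9.53, 10.9 and 9.35 FPKM in Cre hearts. With succinate it was 5.995, 7.41, 6.88 and 5.63 FPKM in floxed hearts and 9.60, 9.43, 10.3 and 9.11 FPKM in Cre hearts. All 8 Cre hearts lay above all 8 floxed hearts, at 9.11 to 13.0 against 5.63 to 8.996 FPKM.

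The log2 fold change of Grk5 by genotype was 0.54 ± 0.10 with succinate (adjusted p = 0.0196) and 0.43 ± 0.10 without (adjusted p = 0.181), and the mean of both was 0.48 ± 0.07 (adjusted p = 0.00154). DESeq2 also passed it without succinate (0.42 ± 0.11, adjusted p = 0.0327). The call with succinate was lost without replicate 1 or 4 of the treated floxed hearts (adjusted p = 0.0751 and 0.0575) or replicate 2 or 3 of the treated Cre hearts (0.0521 and 0.0685), with values of 0.49 to 0.53, and in limma on log2(FPKM + 1) (0.51, adjusted p = 0.0534). The mean over both treatments passed without any single library (adjusted p of 0.00147 to 0.00485). The succinate effect did not pass, at -0.22 ± 0.10 in floxed and -0.11 ± 0.10 in Cre hearts (adjusted p = 0.173 and 0.680). Zfp950, a zinc finger gene, overlaps Grk5 on the opposite strand in the GENCODE M21 annotation and had 477 to 1108 counts per library. Its mean genotype effect was 0.02 ± 0.09 (adjusted p = 0.948). For succinate over both genotypes Zfp950 was at -0.27 ± 0.09 (adjusted p = 0.0538) and Grk5 at -0.17 ± 0.07 (adjusted p = 0.122). The part of Zfp950 reads in the Grk5 counts was not tested.

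Arrb1 encodes beta-arrestin 1. Its level was 4.94, 4.20, 5.46 and 4.88 FPKM in floxed hearts, 4.12, 4.89, 4.68 and 3.47 FPKM with succinate, 6.28, 5.27, 5.62 and 5.04 FPKM in Cre hearts, and 5.04, 4.31, 5.55 and 4.60 FPKM in Cre hearts given succinate. Neighbouring groups overlapped. The succinate effect was -0.14 ± 0.10 in floxed and -0.15 ± 0.10 in Cre hearts (adjusted p = 0.394 and 0.530), and the genotype effect was 0.16 ± 0.10 without and 0.15 ± 0.10 with succinate (adjusted p = 0.685 and 0.648). The means of both, -0.14 ± 0.07 for succinate and 0.15 ± 0.07 for genotype, did not pass (adjusted p = 0.166 and 0.330). Without replicate 2 of the floxed hearts the former reached -0.20 (adjusted p = 0.0488), and without replicate 4 of them the succinate effect of Grk5 over both genotypes reached -0.21 (adjusted p = 0.0374).

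**Figure D3:**
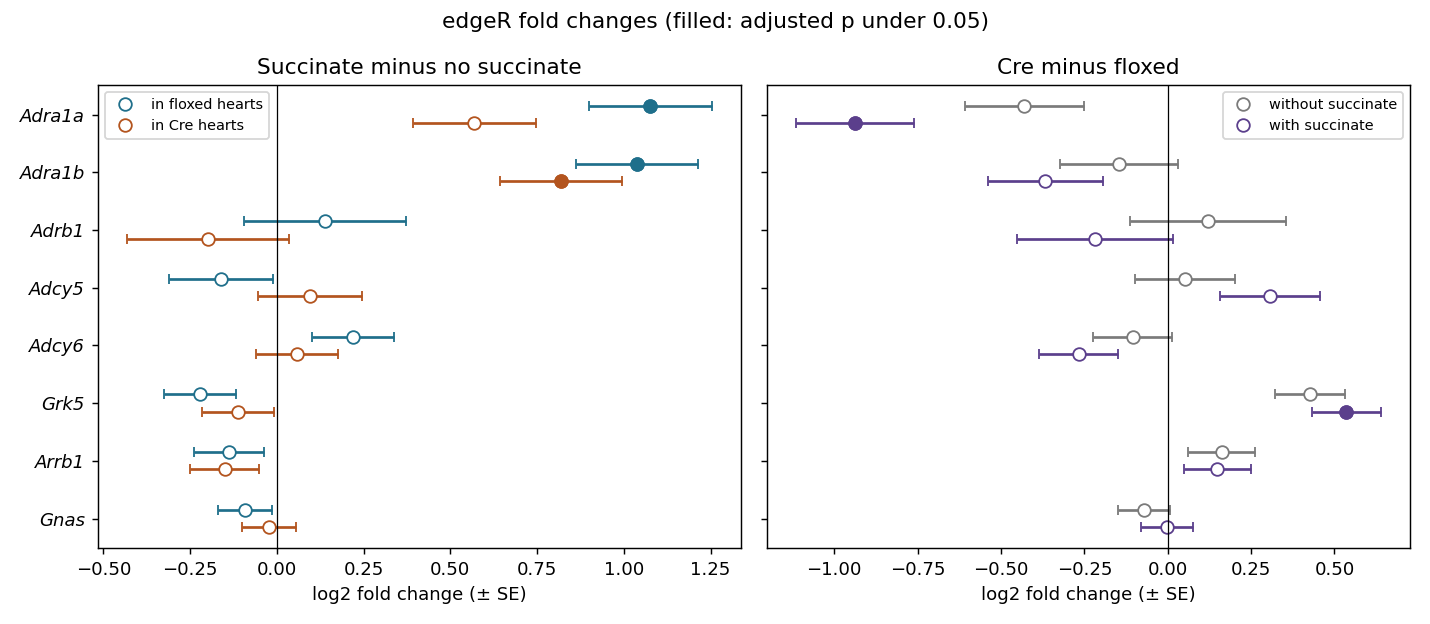
Log2 fold changes of the 8 genes from edgeR (x axis, ± SE) for succinate within each genotype (left) and for genotype within each treatment (right), filled where the adjusted p was under 0.05. The filled points are Adra1a in floxed hearts (1.08) and Adra1b in floxed and Cre hearts (1.04 and 0.82) on the left, and Adra1a (-0.94) and Grk5 (0.54) with succinate on the right.

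By genotype without succinate, 0 of the 8 genes passed in edgeR, where 0.11% of all tested genes passed (0.089% higher, 0.0205% lower). In edgeR 2 of the 8 and 1278 of the 14607 tested genes had an unadjusted p under 0.05 there. DESeq2 passed Grk5 of the 8, and 90 genes in all. With succinate 2 of 8 passed, Adra1a lower and Grk5 higher, where 0.691% of all genes did (0.548% higher, 0.144% lower). For the mean of both treatments the same 2 genes passed, where 1.88% did (1.3% higher, 0.575% lower). With succinate 4 of the 8 had an unadjusted p under 0.05, against 1617 of all tested genes. For the mean of both treatments 4 of the 8 did, against 2060 of all tested genes. The comparisons of treatment and of genotype share hearts: the floxed hearts given succinate enter both the rise of Adra1a with succinate and its lower level by genotype.

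Whether succinate acted differently in the 2 genotypes was tested as an interaction, the succinate effect in Cre hearts minus that in floxed hearts. In edgeR 0 of the 8 genes passed and 0 had an unadjusted p under 0.05; over all tested genes 0% passed, with 709 at an unadjusted p under 0.05. DESeq2 passed 0 of the 8 and 4 genes in all. Adra1a was at -0.51 ± 0.25 (adjusted p = 0.970), Adra1b at -0.22 ± 0.25 and Grk5 at 0.11 ± 0.15 (both adjusted p = 0.973). A smaller rise of Adra1a in Cre hearts was therefore not shown by the test of the difference itself.

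Of the 9 adrenergic receptor genes listed, 7 entered the test, and for succinate over both genotypes 2 rose, 1 fell and 4 did not pass (median log2 fold change -0.03). Adra1d, the third alpha1 receptor gene, had mean levels of 0.795 to 0.986 FPKM, and its log2 fold change with succinate over both genotypes was -0.17 ± 0.23 (adjusted p = 0.650).

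Further genes of the pathway were taken from 11 lists, chosen like the 8 genes with earlier results of these data known. Without the 8 genes they held 138 tested genes. For succinate in floxed hearts 8 rose, 13 fell and 117 did not pass, a share of 15.2% against 13.1% of all tested genes. In Cre hearts 0 of 138 passed in edgeR, against 0.917% of all tested genes. There 20 of the 138 had an unadjusted p under 0.05, against 2054 of all 14607 tested genes. DESeq2 passed 4 of the 138 and 485 genes in all. Over both genotypes 12 rose and 19 fell, or 22.5% against 19% of all genes. By genotype over both treatments 2 were higher and 2 lower, or 2.9% against 1.88% of all genes. These shares lay near those of all genes, and the lists are described by their members. The counts per list and of markers below stand beside these shares of all tested genes with succinate. Over both genotypes 10.6% were higher and 8.45% lower, in floxed hearts 7.48% and 5.64%, and in Cre hearts 0.602% and 0.315%.

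In the list of receptor kinases and arrestins 2 of 7 tested genes fell with succinate over both genotypes and 0 rose (median -0.17). Grk2, the most abundant receptor kinase gene here, fell by 0.20 ± 0.04 (adjusted p = 0.00529), from 21.7 ± 0.847 to 17.2 ± 1.28 FPKM in floxed hearts and from 19.1 ± 0.982 to 17.2 ± 0.715 FPKM in Cre hearts. Arrb2, which encodes beta-arrestin 2, fell by 0.46 ± 0.10 (adjusted p = 0.00405). In floxed hearts alone both passed as well, at -0.28 ± 0.06 and -0.50 ± 0.14 (adjusted p = 0.00764 and 0.0265). By genotype Grk5 was the single member of this list that passed.

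Of 8 tested adenylyl cyclase genes, 1 rose and 2 fell with succinate over both genotypes (median 0.08), and none of the 3 was Adcy5 or Adcy6. Adcy9 rose by 0.45 ± 0.10 (adjusted p = 0.00584), Adcy7 fell by 0.66 ± 0.13 (adjusted p = 0.00267) and Adcy4 fell by 0.48 ± 0.10 (adjusted p = 0.00327). Adcy7 is known from blood cells, and macrophage markers moved beside it. Of 5 macrophage markers 4 fell in floxed hearts in edgeR and 0 in Cre hearts (2 had an unadjusted p under 0.05 there, and DESeq2 passed 1), and their summed level was 198 to 285 CPM in floxed hearts, 97.9 to 179 CPM with succinate, 207 to 298 CPM in Cre hearts and 132 to 235 CPM in Cre hearts given succinate. In bulk tissue fewer cells of a type and less RNA per cell cannot be told apart, and the part of these cells in the changes of Adcy7 and Arrb2 was not tested.

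Among 22 tested genes of G protein subunits 1 rose with succinate over both genotypes, Gnai1 (0.56 ± 0.18, adjusted p = 0.0339), which encodes an inhibitory alpha subunit, and 0 fell. By genotype over both treatments Gnao1, which encodes the Go alpha subunit, was higher in Cre hearts (0.41 ± 0.09, adjusted p = 0.0166). Of 11 regulators of G protein signalling, which speed the shut-off of alpha subunits, 2 rose and 2 fell with succinate over both genotypes, Rgs7 at 0.88 ± 0.22 (adjusted p = 0.0100), Rgs2, which acts on Gq, at 0.49 ± 0.16 (adjusted p = 0.0407) and Rgs19 at -0.43 ± 0.14 (adjusted p = 0.0331).

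Of 16 genes of phospholipase C and protein kinase C, the Gq branch, 1 rose and 3 fell with succinate over both genotypes. Plcb1, a phospholipase C activated by Gq, rose by 0.40 ± 0.11 (adjusted p = 0.0189) and Prkce fell by 0.35 ± 0.10 (adjusted p = 0.0197). Prkcz, an atypical protein kinase C that diacylglycerol does not activate, fell by 0.66 ± 0.18 (adjusted p = 0.0169). It was also higher in Cre hearts over both treatments (1.52 ± 0.18, adjusted p = 0.000171), at low levels of 0.0995 ± 0.0273 FPKM in floxed and 0.182 ± 0.0301 FPKM in Cre hearts, and 0.0379 ± 0.00812 and 0.178 ± 0.0409 FPKM with succinate (SD, n = 4 each).

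On the cyclic AMP side 2 of 22 tested genes of protein kinase A subunits, anchors and other effectors rose and 3 fell with succinate over both genotypes. Prkar1a, a regulatory subunit, fell by 0.41 ± 0.10 (adjusted p = 0.00931), Pkig, an inhibitor of the kinase, fell by 0.28 ± 0.07 (adjusted p = 0.00864), and Akap1, which anchors the kinase at mitochondria, rose by 0.39 ± 0.11 (adjusted p = 0.0233). A further list was drawn up for targets of the kinase, subunits of target complexes, and phosphatases. Of its 13 tested genes 3 rose and 2 fell. Those that rose were Lipe, hormone-sensitive lipase (0.77 ± 0.12, adjusted p = 0.000587), Ryr2, the calcium release channel and also among the cardiomyocyte markers (0.60 ± 0.14, adjusted p = 0.00635), and Phkg1, a phosphorylase kinase subunit (0.64 ± 0.17, adjusted p = 0.0154).

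Of 17 phosphodiesterase genes, which break down cyclic nucleotides, 1 fell with succinate over both genotypes, Pde8a (-0.22 ± 0.06, adjusted p = 0.0227), and Pde7a was lower in Cre hearts over both treatments (-0.59 ± 0.12, adjusted p = 0.0183). Of 15 genes of cyclic AMP-responsive transcription 1 passed with succinate over both genotypes, Atf1 (-0.30 ± 0.07, adjusted p = 0.00928). Of 8 tested genes of catecholamine synthesis, uptake and breakdown 2 rose and 2 fell. Dbh, which makes noradrenaline in sympathetic nerve endings, fell by 0.72 ± 0.23 (adjusted p = 0.0356), and Ddc rose by 1.07 ± 0.26 (adjusted p = 0.00879). Maob, a monoamine oxidase gene, was lower in Cre hearts over both treatments (-0.50 ± 0.10, adjusted p = 0.0183).

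**Figure D4:**
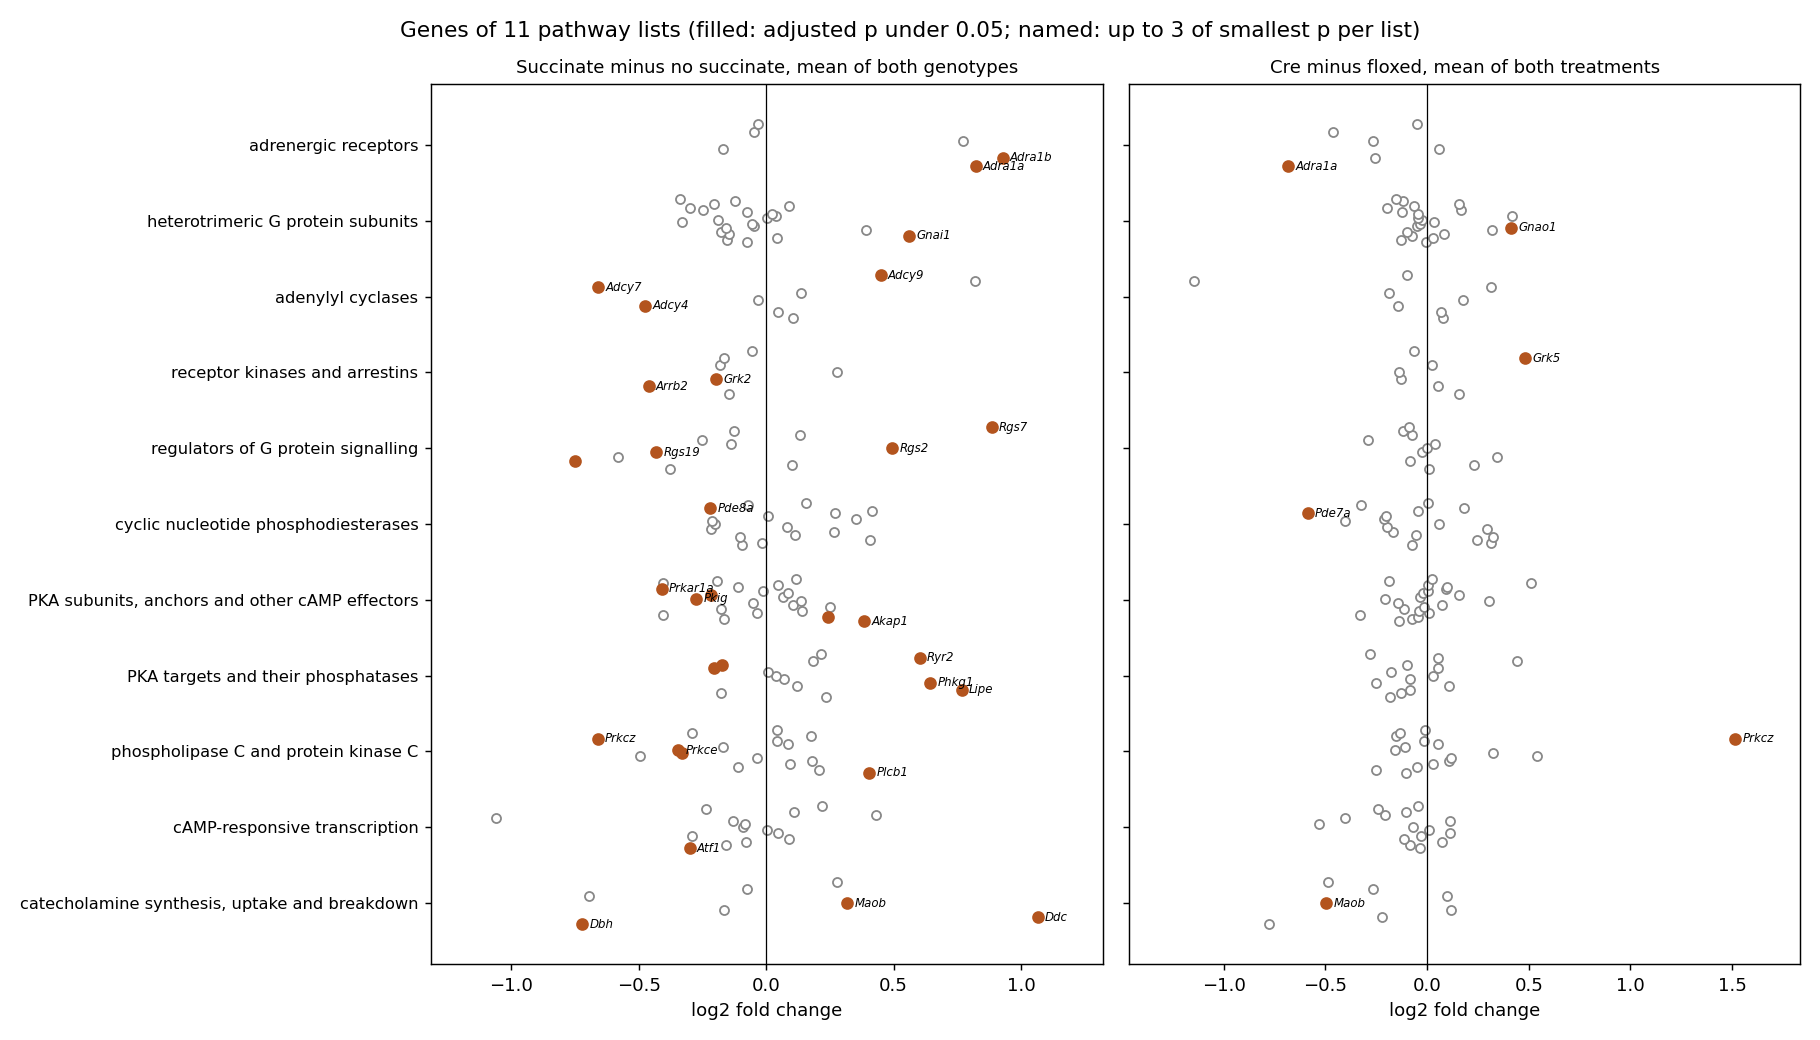
Log2 fold changes (x axis) of the tested genes reported here in 11 pathway lists (y axis) for the mean succinate effect (left) and the mean genotype effect (right), with filled points where the adjusted p was under 0.05. On the left Adra1a (0.82) and Adra1b (0.93) lie to the right of 0 and Adcy7 (-0.66) to the left, and on the right Grk5 (0.48), Gnao1 (0.41) and Prkcz (1.52) are the filled points above 0.

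Cardiomyocyte markers summed to 41751 to 48557 CPM in floxed hearts and 48203 to 56268 CPM with succinate, and to 39724 to 44909 CPM in Cre hearts and 47801 to 54486 CPM with succinate. Of the 7 markers 2 rose in floxed hearts and 1 in Cre hearts (median log2 fold change 0.18 and 0.17), against 1.08 for Adra1a and 1.04 for Adra1b in floxed hearts. The summed level of atrial markers (5 genes, of which 2 entered the test) was lower in floxed hearts given succinate. It was 172 to 467 CPM without succinate and 64.6 to 90.8 CPM with it, without overlap. Of the 2 tested markers Nppa passed (-1.92 ± 0.44, adjusted p = 0.0122) and the other did not. Whether the part of atrial tissue differed was not tested. Of 5 markers of pericytes and smooth muscle 2 rose over both genotypes, Abcc9 (0.44 ± 0.10, adjusted p = 0.00494) and Pdgfrb (0.26 ± 0.06, adjusted p = 0.00327), while Acta2 was at -0.61 ± 0.24 (adjusted p = 0.0880). Of 5 endothelial markers 1 rose over both genotypes, Fabp4 (0.64 ± 0.20, adjusted p = 0.0336). The other 4 did not pass, and the median log2 fold change of the 5 was -0.05. The part of these markers in the rise of Adra1a and Adra1b was not tested. Sympathetic neuron markers (5 genes, among them Dbh and Th) summed to 8.40 to 14.9 CPM in floxed hearts, 7.60 to 9.92 CPM with succinate, 10.1 to 11.8 CPM in Cre hearts and 6.77 to 9.99 CPM with succinate, and Th had at most 3 counts in any library.

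By genotype, atrial markers summed to 64.6 to 90.8 CPM in floxed hearts given succinate and 446 to 934 CPM in Cre hearts given succinate, without overlap, and to 172 to 467 CPM and 355 to 1759 CPM without succinate. Of the 2 atrial markers tested 1 was higher in Cre hearts given succinate. The number of genes with a count was 18038 to 18376 in floxed and 18537 to 19130 in Cre hearts, also without overlap. Fibroblast markers (5 genes) summed to 943 to 1169 CPM in floxed and 1101 to 1664 CPM in Cre hearts, and to 754 to 1053 CPM and 949 to 1524 CPM with succinate. By genotype over both treatments their median log2 fold change was 0.30, and 0 of 5 passed in edgeR, although 4 had an unadjusted p below 0.05 and DESeq2 passed 1. The part of these measures in the genotype values of Grk5 and Adra1a was not tested. White adipocyte markers (4 genes) summed to at most 0.887 CPM.

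Over the 16 hearts the log2 CPM of Adra1a correlated with that of Adra1b at r = 0.82 and Adcy6 at r = 0.77, and with Grk5 at r = -0.69, and Grk5 correlated with Arrb1 at r = 0.72. After each group's mean was subtracted, Adra1a correlated with Adrb1 at r = 0.76, Adcy5 at r = 0.71 and Adcy6 at r = 0.67, whereas its r with Grk5 was 0.01. In these within-group values Adrb1, Adcy5 and Adcy6 correlated with each other at r = 0.62 to 0.67, Grk5 with Arrb1 at r = 0.55 and with Adcy5 at r = 0.56, and 10 of 28 pairs exceeded 0.5. Gnas had within-group values of -0.40 to 0.22 with the other 7. The points share libraries and their scaling, so these values describe the 16 hearts and carry no test.

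**Figure D5:**
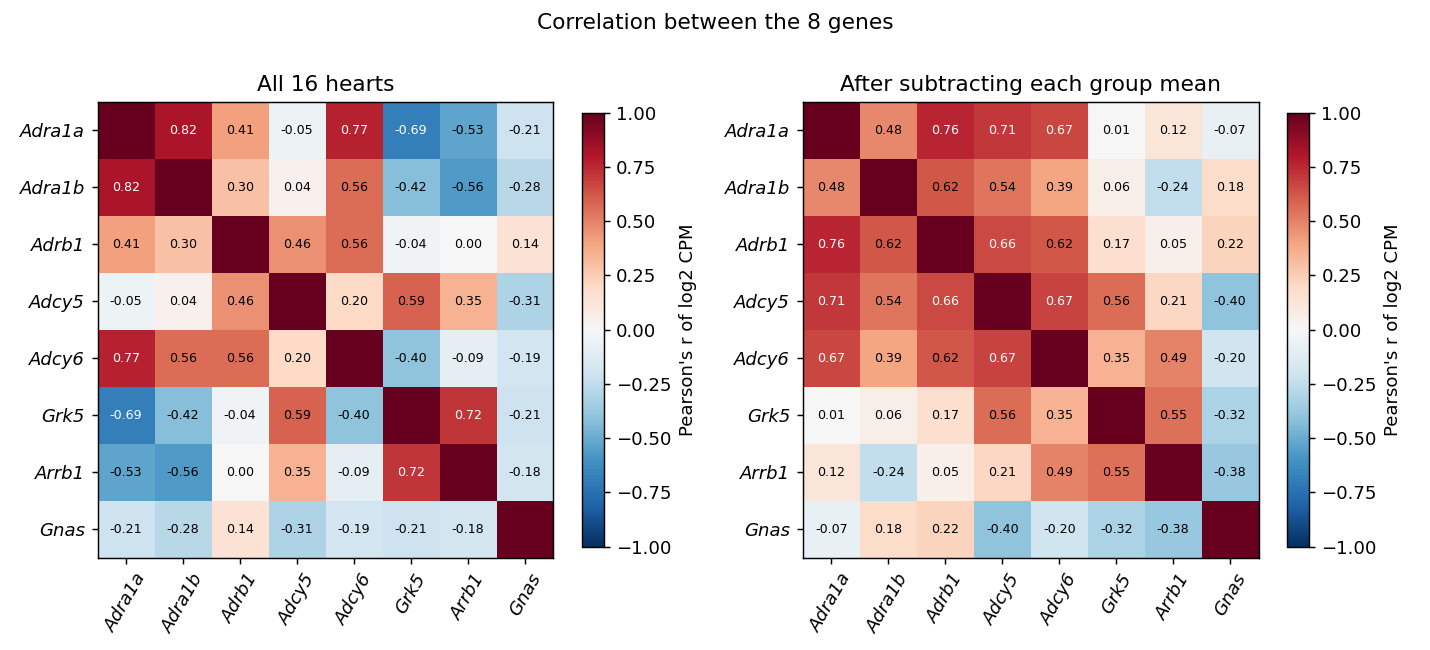
Pearson's r of log2 CPM between the 8 genes over 16 hearts (left) and after subtracting each group's mean (right), with colour from -1 to 1. Adra1a and Grk5 are at -0.69 on the left and 0.01 on the right, while Adra1a and Adrb1 are at 0.41 and 0.76.

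Of 8838 tested genes whose log2 CPM averaged 3 or more, those whose pattern over the 16 hearts was most like Adra1a were Dnajc28, Eef2k and Acss1 (r = 0.94, 0.93 and 0.93). For Adra1b they included Abcd3 and Acsf3 (r = 0.94 for each), Abcd3 being a transporter of the peroxisome membrane. For Grk5 they were Cp, the gene of ceruloplasmin, Sulf2 and Gnao1 (r = 0.94, 0.92 and 0.91), the last of which also passed by genotype. For Adrb1 they were Nudcd3, Paqr9 and Pacsin2 (r = 0.84, 0.82 and 0.80), for Adcy5 Arhgap35, Pgm5 and Parm1 (r = 0.89 for each), and for Adcy6 Phf12, Lama5 and Dennd4b (r = 0.91, 0.89 and 0.88). For Arrb1 they were Abcc4, Tgm2 and Zhx1 (r = 0.85, 0.84 and 0.84), and for Gnas Eri3, Ankrd40 and Hmga1 (r = 0.92, 0.81 and 0.80). These are the highest of many values and carry no test.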

How the data were processed

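Bulk RNA sequencing of 16 hearts in 4 groups of 4 was analysed from the deposited tables. The authors deposited whole-number counts per gene and FPKM values. The submitters' processing notes name the build GRCm39 and, as tools, DESeq2, fastp, HTSeq, HISAT2 and R 3.2.0; their roles and settings are not given in the sources used here, nor is strandedness, so antisense reads cannot be told apart. The deposited FPKM equalled count over library total and 1 gene length (relative spread 1.2e-15), so they carry no scaling for composition. Per the labels' protocols, a VAHTS kit served for the libraries and TRIzol for the RNA. Nothing in the labels states that each heart is a different animal; the p-values rest on the variation among the 16 samples, which may be technical. Counts of replicates differed beyond sampling (chi-square over its degrees of freedom in 24 pairs, 10.9 to 60.8).

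Counts were filtered with filterByExpr (minimum count 10), which left 14607 genes, scaled by TMM and tested in edgeR 4.0.16 (R 4.3.3, robust quasi-likelihood F-test, 4 group means in 1 fit, Benjamini-Hochberg at 0.05). The steps were tested on simulated data. The floor of 3 counts was 0.0865 to 0.108 CPM and covers counting error only. Alternatives used DESeq2 1.42.0, limma 3.58.1 on log2(FPKM + 1) or log2(FPKM + 0.1), other scalings, filters, a replicate block and single libraries left out. The members and lists were chosen with earlier results of these data known. All 8 members were named, up to 3 passing genes of smallest p per list and comparison, and the 3 genes of highest Pearson r with each member; a few genes that the rule names are not reported here.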

Additional observations from a re-analysis of the deposited data

How the results depend on the processing

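The calls for succinate in floxed hearts (2 of 8 genes), for succinate over both genotypes (2) and for genotype over both treatments (2) kept their number under every other setting in which each was run; with single libraries left out they stayed at 2 to 2, 2 to 3 and 2 to 2. The single call for succinate in Cre hearts, Adra1b, went to 0 without a filter on low counts, with the replicate block, and in limma on log2(FPKM + 1), log2(FPKM + 0.1) and log2(FPKM + 1) with a mean FPKM of at least 1 (range 0 to 1 with single libraries left out). For genotype with succinate limma on log2(FPKM + 1), with or without the mean FPKM of at least 1, left 1 of 2, Adra1a (0 to 2 with single libraries left out), and without succinate DESeq2 gave 1 in place of 0 (0 to 0). The interaction stayed at 0 (0 to 0). The cause of these moves was not tested.

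Counts over all tested genes moved by more than 1.5 times in DESeq2, to 485 from 134 for succinate in Cre hearts, 90 from 16 and 327 from 101 for genotype without and with succinate, 603 from 274 for genotype over both treatments and 4 from 0 for the interaction. With only the groups compared they were 46 for succinate in Cre hearts and 3 for genotype without succinate. In limma on log2(FPKM + 1) genotype with succinate gave 67, and with a mean FPKM of at least 1 it gave 51, genotype without succinate 7 and genotype over both treatments 176. An alternative chosen after seeing the data left out both libraries farthest from their groups on the first principal component. With both left out succinate in Cre hearts gave 39, genotype with succinate 154 and genotype over both treatments 149. By mean correlation with its own group, replicate 4 of the floxed hearts (0.980) lay farther out than replicate 2 (0.982). With single libraries left out the ranges were 1018 to 2106 for succinate in floxed hearts, 22 to 183 in Cre hearts, 2015 to 2899 over both genotypes, 4 to 23 and 44 to 134 for genotype without and with succinate, 156 to 308 over both treatments and 0 to 0 for the interaction.

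Of 1432 log2 fold changes of the 8 genes under the alternatives 33 changed sign, all of values that had not passed. For Gnas by genotype with succinate the value of -0.0015 became 0.00077 with only the groups compared, 0.032 in limma on log2(FPKM + 1) with or without the mean FPKM of at least 1, and 0.033 on log2(FPKM + 0.1) (-0.042 to 0.019 with single libraries left out). With both libraries left out Adcy5 for succinate over both genotypes was 0.017, Adra1b for genotype without succinate 0.075, Adrb1 for genotype over both treatments 0.064 and Arrb1 in the interaction 0.081. With single libraries left out Adcy5 ranged from -0.082 to 0.12 for genotype without succinate and -0.0995 to 0.013 for succinate over both genotypes, Adcy6 from -0.067 to 0.13 for succinate in Cre hearts, Adra1b from -0.27 to 0.084 for genotype without succinate, Adrb1 from -0.16 to 0.017 for genotype over both treatments, -0.063 to 0.25 without succinate and -0.14 to 0.061 for succinate over both genotypes, and Arrb1 from -0.092 to 0.066 in the interaction.

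The replicate numbers in the titles gave little sign of pairing. Deviations of same-numbered hearts from their group means correlated at -0.12 to 0.32 over 24 pairs (median 0.02). Those of differently numbered hearts correlated at -0.28 to 0.24 over 72 pairs (median -0.02). Of the 16 hearts 5 correlated best with one of their own number. Whether same-numbered hearts shared a batch was not tested. With the replicate block 1903 genes passed for succinate in floxed hearts and 136 in Cre hearts, 11 and 92 for genotype without and with succinate, and 0 in the interaction, and the call of Adra1b for succinate in Cre hearts was lost at a log2 fold change of 0.82. Scaling moved the median of all genes by less than 0.1 (log2) in every alternative.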
